A study of Mus musculus with 2 samples.

Results

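The set of 10 genes that pathologists and liver biologists use to recognise bile duct and progenitor epithelium was followed in 2 mouse liver libraries. The genes were chosen by symbol from the 21878 symbols in the deposited tables, and all 10 were found: the keratin genes *Krt8*, *Krt18*, *Krt7* and *Krt19*, the adhesion and junction genes *Epcam* and *Cldn4*, the transcription factor gene *Sox9*, the secreted protein gene *Spp1*, and the membrane glycoprotein genes *Prom1* and *Cd24a*. Both libraries were polyA RNA from liver of FVB/N mice, an inbred strain, and both groups had received c-Myc hydrodynamic injections, in which a large volume is pushed rapidly into the circulation so that DNA enters hepatocytes. One group had no treatment (untreated) and the other was given TSA, an abbreviation that the labels do not spell out, and each group was 1 library. The promoter that drove c-Myc, the dose and timing of TSA, the age of the animals, any pooling, and whether tumour or whole liver was taken are not stated in the labels. The series design describes a model of hepatocellular carcinoma, so the comparison asks how these epithelial markers differed in c-Myc liver with and without TSA.

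The bile ducts are lined by cholangiocytes, which descend from the same fetal hepatoblasts as hepatocytes. Hepatocytes carry the simple keratins 8 and 18 only, whereas cholangiocytes add keratins 7 and 19, EpCAM, SOX9 and osteopontin. In injured liver and in some liver cancers, cells with mixed features can carry these biliary proteins, and CD133 (*Prom1*) and CD24 have been used to sort cells with progenitor or tumour-initiating behaviour. None of the 10 genes is specific to bile ducts across all tissues.

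Total counts were close, at 17281523 reads in the untreated and 17088227 in the TSA library, over 15292 and 14958 detected genes. With 1 library per group no test across conditions exists, and the 95% intervals given with each ratio cover counting error only, not the spread between animals. Levels are given as the deposited FPKM, which is scaled by gene length and by the total count of the library. Ratios of TSA over untreated were scaled by TMM, a method that assumes most genes do not differ, and this scaling made every ratio 1.80 times as large as total counts did. Genes whose ratio reached 2-fold in either direction, with an interval that left out 1, were called higher or lower.

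The 10 markers did not move as a block. *Krt7*, *Epcam* and *Cldn4* were lower in the TSA library by 12.3-fold to 31.6-fold. *Krt19*, *Sox9*, *Spp1*, *Prom1* and *Cd24a* were higher by 4.56-fold to 58.4-fold, and *Krt8* and *Krt18*, the most abundant of the set, were called neither. Of all 13027 genes tested 26.0% were called higher and 27.4% lower, so 3 of 10 lower was near the background and 5 of 10 higher was above it, for a set of 10 genes that were not drawn at random. By total counts 4 members were higher, against 16.0% of all genes, and 3 lower, against 48.7%. All 10 passed the minimum of 20 reads summed over both libraries. *Krt7*, *Krt19*, *Cldn4*, *Prom1* and *Cd24a* reached it only through the library in which they were higher, and *Sox9* only by its sum of 21 reads. The median log2 ratio of the 10 was 1.59, against -0.11 for all genes tested. That median falls between the 5 members that were higher and the other 5, and is no summary of either. In liver tissue, fewer cells of a type and less RNA per cell cannot be told apart.

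**Figure D1:**
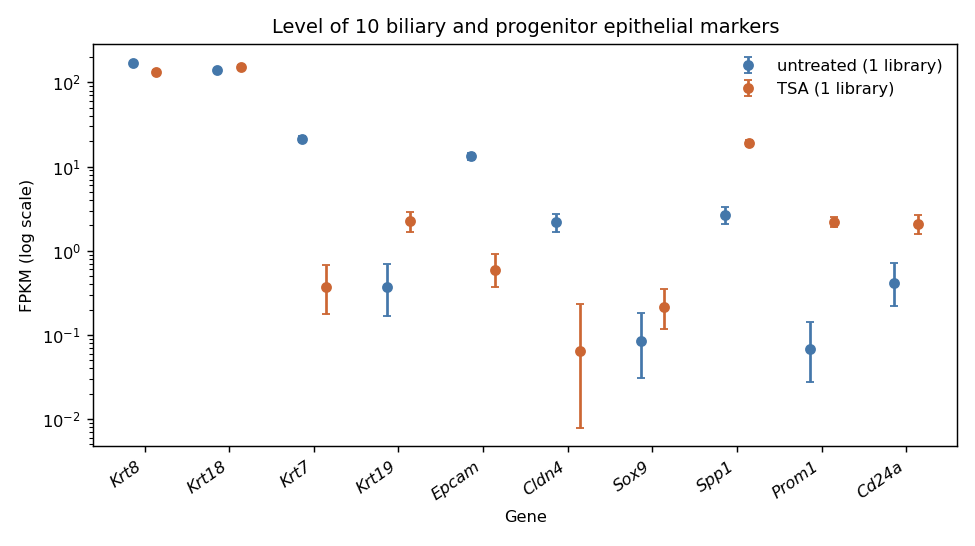
FPKM of each marker on a log axis in the untreated (blue) and the TSA (orange) library, 1 library per group, with bars for the exact 95% Poisson counting interval. *Krt8* and *Krt18* lie above 100 FPKM in both libraries, *Krt7*, *Epcam* and *Cldn4* are lower with TSA, and *Krt19*, *Sox9*, *Spp1*, *Prom1* and *Cd24a* are higher with TSA.

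*Krt8* and *Krt18* encode the type II and type I keratins that pair to form the intermediate filaments of hepatocytes and of other simple epithelia. *Krt8* had 5266 reads (169 FPKM) in the untreated and 4152 reads (135 FPKM) in the TSA library. *Krt18* had 3371 reads (139 FPKM) and 3691 reads (154 FPKM). These were the only members among the most abundant transcripts: *Krt8* ranked 390 by FPKM among detected genes without treatment and 486 with TSA, and *Krt18* ranked 491 and 419.

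The TMM ratio of *Krt8* was 1.44 (1.38 to 1.499), and with total counts it turned to 1.25-fold lower. The ratio of *Krt18* was 1.998 (1.91 to 2.09), just short of the 2-fold threshold, and 1.11 with total counts. The direction of *Krt8* and the call of *Krt18* therefore depended on the scaling. Their ratio to each other does not depend on it: *Krt8* FPKM was 1.21 times that of *Krt18* without treatment and 0.872 times with TSA. Markers of hepatocytes, the cells in which this pair is the main keratin, were higher in 12 of 12 cases with TMM and in 11 by total counts. Over all genes 26.0% and 16.0% were higher. The summed level of these markers was 5909 CPM (CPM, reads scaled to a common library size, here by TMM) without treatment and 161773 CPM with TSA. *Alb*, for albumin, gave 1964 and 112120 CPM of these sums. The part of hepatocytes in the keratin values was not tested.

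*Krt7*, for the type II keratin of ducts and other glandular epithelia, had 577 reads (21.1 FPKM) in the untreated and 10 reads (0.369 FPKM) with TSA. The TSA level was lower by 31.6-fold (17.1 to 66.3), and its ratio was the smallest of the 10. *Krt19*, for a type I keratin of the same ducts, went the other way, with 9 reads (0.368 FPKM) untreated and 54 reads (2.23 FPKM) with TSA, a ratio of 10.95 (5.36 to 25.2). The 2 keratins that jointly distinguish ducts from hepatocytes thus stood in opposite order: *Krt7* FPKM was 57.2 times that of *Krt19* without treatment, whereas *Krt19* FPKM was 6.05 times that of *Krt7* with TSA.

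Both remained minor beside the hepatocyte pair. *Krt7* made up 6.39% of the summed FPKM of these 4 keratin genes without treatment and 0.127% with TSA, and *Krt19* made up 0.112% and 0.766%. The sum of the type II genes *Krt7* and *Krt8* was 1.36 times that of the type I genes *Krt18* and *Krt19* without treatment and 0.862 times with TSA. Relative to *Krt8* reads in the same library, which removes the library scaling, *Krt7* was 45.5-fold (24.5 to 95.5) lower and *Krt19* 7.61-fold (3.72 to 17.5) higher.

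Among all 53 keratin symbols 6 had enough reads to be tested, the 4 members and *Krt10* and *Krt20*. *Krt20*, for a type I keratin best known from intestinal and urothelial epithelium and named here after its values were seen, had 373 reads (11.1 FPKM) without treatment and 0 with TSA. With the 0 in the TSA library set to a floor of 3 reads it was 68.1-fold (23.1 to 332) lower. *Krt10*, for a keratin of the upper epidermis, named like the next pair after its values were seen, had 15 and 10 reads and was not called. The epidermal keratin genes *Krt5* and *Krt14* had 0 reads without treatment, and with TSA 0 and 1.

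*Epcam* encodes a homophilic adhesion protein of ducts and progenitors that binds claudins at the lateral membrane. It had 472 reads (13.3 FPKM) in the untreated and 21 reads (0.596 FPKM) with TSA, a difference of 12.3-fold (7.96 to 20.1). *Cldn4*, for a tight junction claudin of ducts and many tumours, had 68 reads (2.17 FPKM) and 2 reads (0.0646 FPKM). Its ratio was 18.6-fold (4.96 to 157) lower, and the wide interval reflects the 2 reads. *Epcam* FPKM exceeded that of *Cldn4* by 6.10 times without treatment and 9.23 times with TSA, so this pair kept its order.

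*Krt7*, *Epcam* and *Cldn4* lay among the lowest ratios measured. The share of genes tested with a smaller ratio was 2.23% for *Krt7*, 3.39% for *Cldn4* and 4.56% for *Epcam*, values that no library scaling moves. *Cdh1*, for E-cadherin, the adhesion protein common to hepatocytes and ducts and the most counted gene of the wider biliary list, was 7.24-fold (6.76 to 7.76) lower, from 154 to 11.8 FPKM. Set against *Cdh1* reads of the same library, *Krt7* was 4.37-fold (2.35 to 9.19) lower and *Epcam* 1.70-fold (1.09 to 2.79) lower. *Cldn4* was 2.57-fold lower by the same measure, with an interval from 0.684 to 21.7 that includes no difference from *Cdh1*.

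In the library where these 3 were low, division markers were also low. All 12 were lower with both scalings, against 27.4% of all genes with TMM and 48.7% by total counts. The summed level of the division markers went from 1894 CPM without treatment to 27.0 CPM with TSA. Of 14 progenitor and fetal liver genes tested, 8 were lower and 4 higher with TMM, against 27.4% and 26.0% of all genes. By total counts 10 were lower and 2 higher, against 48.7% and 16.0% of all genes. *Afp*, the fetal serum protein gene, had 2616 and 3.51 FPKM. The part of dividing or fetal-type cells in the 3 marker values was not tested.

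The RefSeq promoter table (GRCm38.p6, 250 bases before to 50 bases after each start) held 7 of the 10 members, and *Krt19*, *Sox9* and *Cd24a* were not in it. The 150 bases before the start are printed for the 3 members that were lower together, followed by 2 that were higher. All are written 5′ to 3′ on the gene's strand. Capitals mark exact matches, on either strand, to GGGCGG (the GC box bound by SP1-type factors), CCAAT (the CCAAT box), TGGGAA (the core of RBPJ, the Notch effector), ACAAAG (a SOX core) and TGANTCA (the AP-1 site). The windows are chr15:101412253-101412402 (plus strand) for *Krt7*, chr17:87635829-87635978 (plus) for *Epcam*, chr5:134946935-134947084 (minus) for *Cldn4*, chr5:104434961-104435110 (plus) for *Spp1* and chr5:44101737-44101886 (minus) for *Prom1*, the last 2 at the more upstream of 2 listed starts.
Krt7: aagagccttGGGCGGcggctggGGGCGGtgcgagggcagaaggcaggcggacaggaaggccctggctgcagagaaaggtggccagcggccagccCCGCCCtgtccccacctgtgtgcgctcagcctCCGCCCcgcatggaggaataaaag
Epcam: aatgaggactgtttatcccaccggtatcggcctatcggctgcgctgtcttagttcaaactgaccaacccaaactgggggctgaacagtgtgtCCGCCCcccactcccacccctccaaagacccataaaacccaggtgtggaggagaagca
Cldn4: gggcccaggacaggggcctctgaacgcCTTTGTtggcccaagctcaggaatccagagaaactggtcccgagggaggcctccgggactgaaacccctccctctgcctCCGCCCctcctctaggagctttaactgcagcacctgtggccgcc
Spp1: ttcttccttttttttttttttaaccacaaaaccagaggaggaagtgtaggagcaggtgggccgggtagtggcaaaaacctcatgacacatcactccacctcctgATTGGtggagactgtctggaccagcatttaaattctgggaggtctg
Prom1: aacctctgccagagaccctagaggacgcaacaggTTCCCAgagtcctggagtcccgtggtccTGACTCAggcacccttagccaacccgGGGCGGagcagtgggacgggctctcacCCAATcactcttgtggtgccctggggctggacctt

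A GC box was found in the promoters of *Krt7*, *Epcam*, *Cldn4* and *Prom1*, and 35.7% of all 32851 promoters of the same length held one. *Krt7* had 4 of them in the printed window. A CCAAT box was found in *Spp1* and *Prom1*, against 37.4% of all promoters. The RBPJ core was found in *Krt8* and *Prom1* (25.6% of all promoters), the SOX core in *Krt18*, *Cldn4* and *Spp1* (18.7%) and the AP-1 site in *Cldn4* and *Prom1* (7.81%). TATAAA was found in *Krt8*, at its start, and in *Spp1* (13.6%), and CATTCC, the core bound by TEAD factors, in none of the 7 (14.7%). The GC content of the 300-base promoter was 66.3% for *Krt7*, 57.0% for *Epcam* and 61.0% for *Cldn4*, compared with 45.3% for *Spp1* and 57.0% for *Prom1*. These matches describe the sequences and do not show that a factor bound there.

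*Sox9*, for the transcription factor that marks the ductal plate and adult ducts, was barely detected. It had 6 reads (0.0837 FPKM) in the untreated and 15 reads (0.212 FPKM) in the TSA library. The ratio of 4.56 (1.67 to 14.4) met the call, but with total counts it was 2.53 with an interval that included 1, and it was then not called.

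*Spp1* encodes osteopontin, a secreted phosphoprotein made by cholangiocytes and by activated macrophages. It had 76 reads (2.65 FPKM) in the untreated and 545 reads (19.2 FPKM) in the TSA library, a ratio of 13.1 (10.3 to 16.9). With TSA it was the most abundant member after the hepatocyte keratins, and it ranked 2384 among detected genes, compared with 9242 without treatment. Its ratio was larger than that of 93.4% of the genes tested. Relative to *Krt8* reads it was 9.10-fold (7.12 to 11.8) higher.

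Macrophage markers were mixed beside *Spp1*: of 14 tested 6 were higher, 3 lower and 5 neither, and none was at 0. Their summed level was 718 CPM without treatment and 863 CPM with TSA. Without TMM the sum was lower with TSA (16666 and 10982 reads, 809 and 414 FPKM), and by total counts 4 markers were higher and 6 lower. The shares of all genes called higher and lower were 26.0% and 27.4% with TMM, and 16.0% and 48.7% by total counts. *Clec4f*, a Kupffer cell gene, was 44.3-fold higher, and *Lyz2*, for lysozyme of myeloid cells, 2.16-fold lower. *Gpnmb* and *Trem2*, genes of the macrophage state in which *Spp1* is often found and named here after their values were seen, had 167 and 37 reads without treatment and 20 and 10 with TSA. With TMM *Gpnmb* was 4.58-fold (2.87 to 7.68) lower, whereas *Trem2*, 2.03-fold (0.988 to 4.57) lower, was not called. By total counts both were called lower. Of 9 genes for osteopontin receptors (CD44 and integrin chains) 4 were called higher with TMM, against 26.0% of all genes. With total counts none was, against 16.0%. *Itgb1*, the integrin beta 1 chain and the most counted, was at 1.29 times the untreated level, and *Itga8* at 2.84 (2.20 to 3.67) times.

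*Prom1*, for the pentaspan glycoprotein CD133 of apical membrane protrusions, had the largest ratio of the 10 with TMM, whereas by total counts *Krt7*, at 57.1-fold lower, differed more than *Prom1*, at 32.4-fold higher. *Prom1* had 7 reads (0.0685 FPKM) in the untreated and 224 reads (2.22 FPKM) in the TSA library, a ratio of 58.4 (27.9 to 147), larger than that of 97.2% of the genes tested. *Epcam* and *Prom1*, both used to sort progenitor cells, stood in opposite order: *Epcam* FPKM was 193 times that of *Prom1* without treatment, and *Prom1* FPKM was 3.72 times that of *Epcam* with TSA.

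*Cd24a*, for a small lipid-anchored glycoprotein of progenitors, immature B cells, neutrophils and red cell precursors, had 13 reads (0.414 FPKM) in the untreated and 64 reads (2.06 FPKM) in the TSA library. Its ratio was 8.98 (4.90 to 17.8). Markers of B cells, neutrophils and red cells were mostly higher in the same library, whereas T cell markers were mostly not called. Of the B cell markers 5 of 6 tested were higher (summed level 5.26 CPM untreated and 13.99 CPM with TSA), of the neutrophil markers 3 of 3 (3.58 and 12.7 CPM, with *Ly6g* at 0 in both) and of the red cell markers 6 of 6 (70.9 and 359 CPM). By total counts 5, 2 and 6 of these were called higher. The share over all genes was 26.0% with TMM and 16.0% by total counts. The part of these cells in the *Cd24a* value was not tested. Reads of *Cd24a* may also be shared with copies of this gene elsewhere in the genome.

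**Figure D2:**
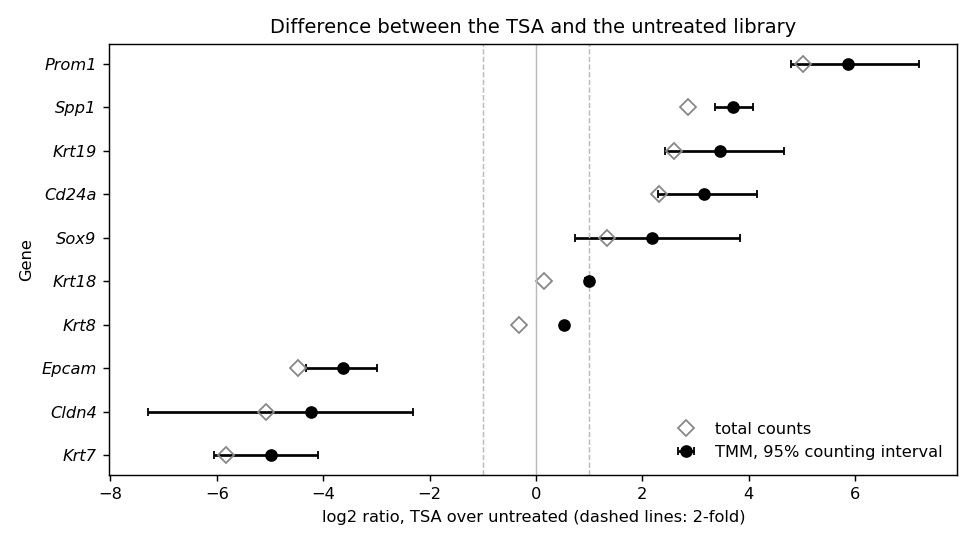
Log2 ratio of TSA over untreated for each marker, ordered by size, with TMM scaling and its 95% counting interval (black) and with total counts (open diamonds). *Krt7*, *Cldn4* and *Epcam* lie below the 2-fold line and *Prom1*, *Spp1*, *Krt19* and *Cd24a* above it with both scalings, while *Krt8* lies on opposite sides of 0.

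The label of the set was checked against further genes of bile duct epithelium. *Cftr*, the chloride channel gene of the duct membrane, had 4 reads without treatment and 0 with TSA, and *Sctr*, for the secretin receptor that defines mature cholangiocytes, had 1 and 0. Both were thus at or near 0 in each library, and a count of 0 allows up to 3 reads. A 12-gene cholangiocyte list, of which 6 are members of the set, summed to 87.3 CPM without treatment and 92.1 CPM with TSA after TMM scaling, but to 2026 and 1171 reads, or 52.5 and 30.0 FPKM, without it. Whether the sum was level or lower with TSA therefore depended on the scaling. Different genes led it in each library: *Krt7* and *Epcam* supplied 24.9 and 20.3 CPM of it in the untreated library, and *Spp1* supplied 42.8 CPM of it with TSA. The values give the level of each marker in liver and do not identify the cell that carried it.

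Mesothelial cells of the liver surface also carry keratins 7, 8, 18 and 19. Of 7 mesothelial markers tested 6 were higher with TSA, against 26.0% of all genes. These 6 had under 20 reads without treatment. They passed the count minimum only with reads of the TSA library, which favours a higher call. The summed level of the mesothelial list was 2.50 CPM without treatment and 12.8 CPM with TSA. *Wt1*, the mesothelial transcription factor gene, was at 0 without treatment and had 20 reads with TSA. *Msln*, for mesothelin and named after its values were seen, had 8 and 28 reads, against 9 and 54 for *Krt19*. *Krt7* was lower in the library in which these markers were higher. The part of mesothelial cells in the *Krt19* and *Krt7* values was not tested.

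**Figure D3:**
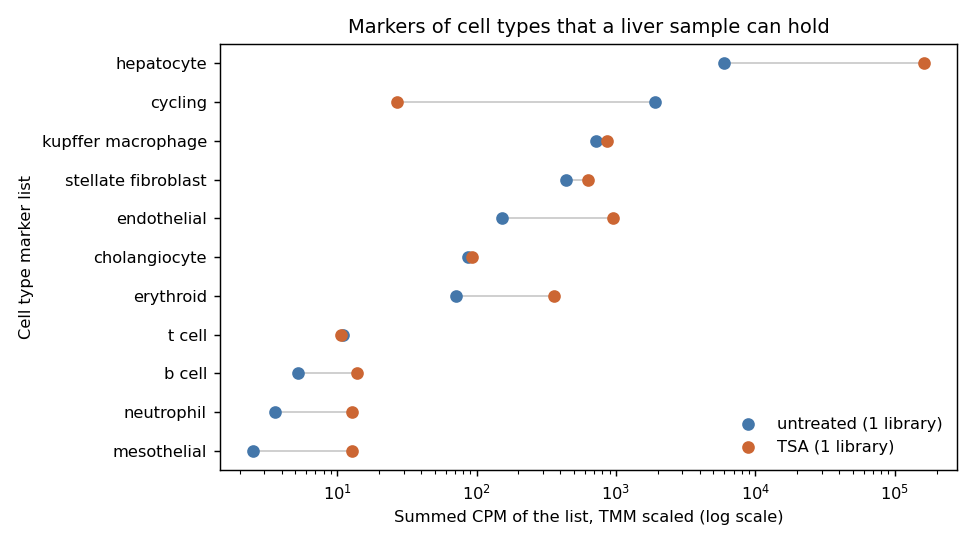
Summed CPM (TMM scaled, log axis) of each cell type marker list in the untreated (blue) and the TSA (orange) library, joined by a line. With this scaling the cholangiocyte sum is 87.3 CPM and 92.1 CPM (2026 and 1171 reads before scaling), while hepatocyte, endothelial, red cell, B cell, neutrophil and mesothelial sums are larger with TSA and the division sum is smaller.

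The wider biliary genes also held members of both directions. Of 24 tested 15 were higher, 5 lower and 4 neither, with a median log2 ratio of 1.53. Scaling by total counts left 10 higher and 7 lower. Over all genes 26.0% were higher and 27.4% lower with TMM, and 16.0% and 48.7% by total counts. *Slc10a2*, for the sodium-dependent bile acid transporter of the apical membrane, was 291-fold (147 to 675) higher, from 8 to 1275 reads. Among genes named after their values were seen, *Aqp1*, for the water channel of ducts and endothelium, was 15.4-fold (13.7 to 17.3) higher, *Onecut2*, for a factor of early duct and hepatocyte development, 241-fold (157 to 390.1) higher, and *Ggt1*, for the gamma-glutamyltransferase of ducts and fetal liver, 163-fold (103 to 274) lower. Endothelial markers were higher in 9 of 10 cases with TMM (151 CPM untreated and 950.1 CPM with TSA) and in 7 by total counts. The part of endothelial cells in the *Aqp1* value was not tested.

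Junction genes around *Epcam* and *Cldn4* differed in both directions. Of 18 epithelial junction genes tested 4 were higher, 6 lower and 8 neither, with a median of -0.29. Scaling by total counts left 3 higher and 10 lower. Both counts of lower genes were near the share over all genes, 27.4% with TMM and 48.7% by total counts. The shares of all genes called higher were 26.0% and 16.0%. *Ctnnb1*, for beta-catenin and the most counted of them, was 1.43-fold below the untreated level with TMM, which did not pass the size rule. Claudin genes differed in direction. *Cldn3*, a neighbour of *Cldn4* on the chromosome, was 70.6-fold (48.9 to 106) higher, from 1.33 to 52.0 FPKM. *Cldn7*, the claudin that binds EpCAM and named after its values were seen, was 29.9-fold (14.4 to 74.9) lower, from 15.2 to 0.282 FPKM.

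EpCAM and claudin-7 are cut by the membrane protease matriptase (*St14*), which is held in check by the inhibitors HAI-1 (*Spint1*) and HAI-2 (*Spint2*), and EpCAM is further cut by ADAM proteases and gamma-secretase. Of 11 genes of this processing list 6 were lower and none higher by total counts, against 48.7% and 16.0% of all genes. With TMM 2 were lower and none higher, against 27.4% and 26.0%, so the list was then not lower more often than all genes. The 2 were *Spint1*, 14.6-fold (7.54 to 32.2) lower, and *St14*, named after its values were seen, 11.9-fold (6.96 to 21.95) lower. *Psen2*, for a catalytic subunit of gamma-secretase and the most counted, was at 1.73 times the untreated level and not called. *Spint2*, also named after its values were seen, was 1.41-fold below the untreated level and not called.

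Genes that anchor keratin filaments were mostly not called with TMM. Of 12 genes for desmosome and plakin proteins 1 was higher, 2 lower and 9 neither, against 26.0% higher and 27.4% lower over all genes. By total counts 1 was higher and 5 lower, against 16.0% and 48.7% of all genes. *Dsc2*, for desmocollin 2, was 65.7-fold (47.4 to 93.7) higher, and *Pkp4*, the most counted, was 1.25-fold below the untreated level and not called. The lower pair, *Evpl* and *Ppl* for envoplakin and periplakin, named after their values were seen, were 11.6-fold and 4.08-fold lower.

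The Notch pathway, in which JAG1 on portal cells signals to NOTCH2 on hepatoblasts to set *Sox9* and duct fate, had 19 genes tested. Of these 2 were higher, 6 lower and 11 neither with TMM, against 26.0% higher and 27.4% lower over all genes. By total counts none was higher and 12 were lower, against 16.0% and 48.7% of all genes. *Notch2*, the most counted, was at 1.11 (1.04 to 1.19) times the untreated level. *Jag2*, a ligand gene, was 46.6-fold (15.8 to 227) lower, from 255 to 3 reads. Among genes named after their values were seen, *Jag1* was 3.26-fold (2.26 to 4.77) higher from 47 to 84 reads, and the pathway's targets *Hes1* and *Nrarp* were 4.12-fold (2.99 to 5.80) and 36.7-fold (9.97 to 306) lower. *Sox9* had the opposite direction to *Hes1* and *Nrarp*, on 6 and 15 reads.

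**Figure D4:**
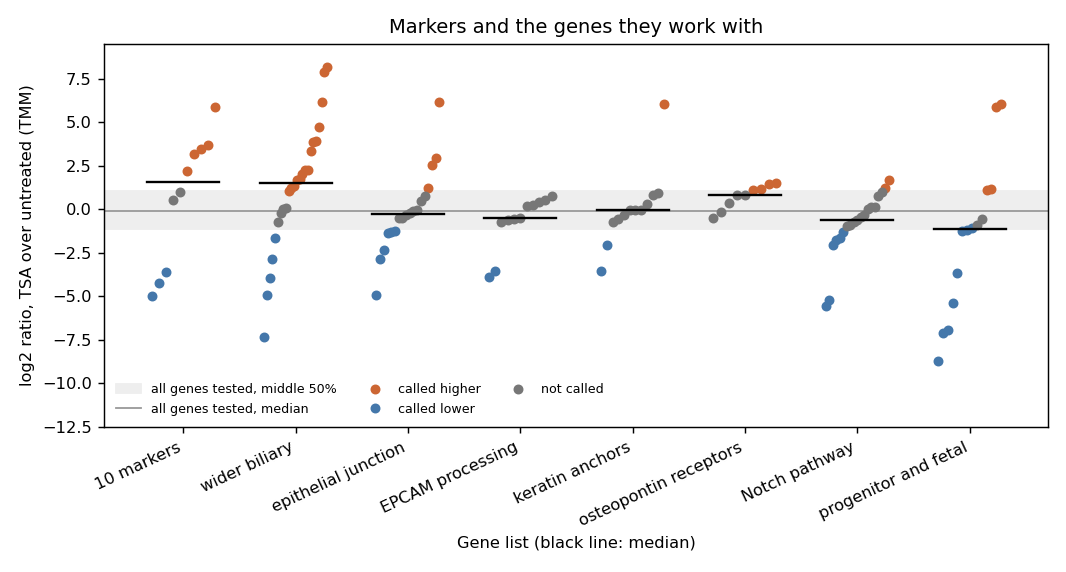
Log2 ratio (TMM) of each tested gene in the 10 markers and in 7 lists of genes around them, coloured by call, with the list median as a black line and the median and middle 50% of all genes tested in grey. The markers and the wider biliary genes spread to both sides of the grey band, whereas most keratin anchor and EPCAM processing genes lie within it.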

How the data were processed

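PolyA RNA of liver was sequenced in 2 libraries, 1 untreated and 1 given TSA. Per the submitters' processing notes the tools were DESeq, Bowtie2, HISAT2 and Trimmomatic, without versions or roles. Build, annotation, counter and strandedness were not given in the sources used here. Deposited counts are whole reads per gene symbol, unscaled, with no unnamed or repeated row. The deposited FPKM are those counts divided by gene length and library total: the length they imply was the same whole number, to 0.1 base, for each of 14271 genes counted in both.

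Counts were scaled by TMM in edgeR 4.0.16 (R 4.3.3; factors 1.34 untreated and 0.744 TSA). Genes with at least 20 summed counts were compared (13027). Intervals are exact conditional binomial (Clopper-Pearson) for ratios, exact Poisson for levels and exact conditional for ratios relative to a reference gene, all at 95%; they cover counting error alone, as PCR copies were not marked by molecular identifiers. A count of 0 was set to 3 counts. DESeq2 1.42.0 size factors, upper quartiles, total counts, FPKM with 0.1 added, other minimums and thresholds and a prior count of 2 were alternatives. Scripts ran on Python 3.11.15 with scipy 1.17.1.

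On simulated counts for TSA against untreated (12932 genes, no variation between animals), the call found 92 of 93 genes changed 3-fold and 103 of 103 changed 8-fold, each in its true direction, and 39 of 12736 unchanged genes were called. The members and lists were chosen with earlier results of these data known. All members are named; of each list the most counted gene and the gene with the largest ratio in either direction (at least 50 counts) may be named, and of cell type lists also genes at 0 in a library, with others marked as named after their values were seen. Reads shared between copies of a gene, or with overlapping and antisense genes, cannot be separated. Some genes of the lists are counted in list totals but are not reported here by name.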

Additional observations from a re-analysis of the deposited data

How the results depend on the processing

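Lower calls stayed at 3 of 10 under DESeq2 size factors, upper quartiles, total counts, deposited FPKM with 0.1 added, no count minimum and the 1.5-fold, 4-fold and interval-bound thresholds. Higher calls numbered 4 to 6 under the same settings, as *Krt18* gained and *Sox9* lost its call. With a minimum of 100 reads 6 members were left, of which 2 were called higher and 2 lower. The median log2 ratio of the members was 0.74 with total counts, 0.45 with FPKM and 0.76 with the minimum of 100 reads, against 1.59 as reported; the last of these rests on fewer members, and the constant scaling shift of 0.85 accounts for the total-count value. *Krt8* ranged from -0.33 to 0.56 on the log2 scale. No paired analysis was possible because each group has 1 library, and no library could be left out. Depth limits *Cldn4*, *Sox9*, *Krt19* and *Prom1* most, since each had under 10 reads in one library.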
